A study of Mus musculus with 24 samples.

Results

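The 10 genes described here are adipokines and genes that mark the fat cell: Adipoq, Lep, Retn, Cfd, Nrg4 and Rbp4, which encode secreted proteins, the transcription factors Pparg and Cebpa, the fatty acid carrier Fabp4 and the glucose transporter Slc2a4. They were chosen by symbol from the 54532 genes of the deposited expression table, and each symbol matched 1 row. White adipocytes store triglyceride and also act as endocrine cells. Adiponectin and leptin, the best known of their hormones, report on fat stores to the brain, liver and muscle, and leptin transcripts generally follow fat cell size and fat mass. PPARG and C/EBPα drive the differentiation of fat cells and maintain the expression of most of the other genes in this group.

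The series compared mice with a knockout (KO) of Mrs2, which encodes the channel for magnesium uptake into mitochondria, with wild-type (WT) mice on chow or on a Western diet (WD), an obesogenic diet. Feeding began at 13 weeks of age and lasted 52 weeks, and each of the 8 groups of genotype, diet and tissue held 3 mice. RNA came from 100 mg of powdered inguinal white adipose tissue (iWAT), a subcutaneous fat depot that was freed of lymph nodes, or from 50 mg of powdered liver. The 4 iWAT groups were WT on chow, KO on chow, WT on WD and KO on WD, and the same 4 existed for liver. How the knockout allele was made, in which cells it acts, and what the diets contained are not stated in the labels used here. Levels are the authors' FPKM, which scale fragment counts by gene length and library size, so that levels of different genes can be compared per length. Fold changes are differences of log2(FPKM + 1) with the standard error (SE) of limma, 3 libraries per group, and a gene was called when its Benjamini-Hochberg adjusted p over all genes tested was under 0.05.

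The iWAT libraries carried the defining genes of fat cells. The lipid droplet protein gene Plin1 stood at 309.6 to 540.1 FPKM in the 12 iWAT libraries and at 0.537 or less in liver, and the hormone-sensitive lipase gene Lipe at 186 to 293 FPKM in iWAT. Depth was 15.4 to 20.4 M recovered reads per iWAT library and 14.7 to 19.5 M per liver library. Mrs2 itself was lower in the KO iWAT libraries, at 1.60 to 2.25 FPKM against 2.74 to 5.01 in WT, and at 3.90 to 4.47 against 5.87 to 6.50 in chow livers, but the WD livers overlapped (4.10 to 5.21 in those labelled KO, 4.10 to 5.11 in those labelled WT). Markers of other cells varied between iWAT libraries. The summed level of 12 skeletal muscle genes was 4492 FPKM in WT WD replicate 1 and 1384 in KO WD replicate 1, against 16.8 to 357 in the other 10. The B cell gene Cd79a stood at 78.9 FPKM in WT chow replicate 3, at 67.3 in KO chow replicate 3 and at 42.8 in KO WD replicate 2. In the rest it stood at 2.16 to 22.6. The sum of 10 lymphocyte genes was 668, 1035 and 718 FPKM in these 3 libraries. That sum was 992 in WT chow replicate 2, 661 in WT WD replicate 1 and 144 to 486 in the rest. The sum of 10 brown and beige fat genes was 143 to 154 in WT chow and 24.9 to 172 in WT WD, and 637 to 912 in KO chow and 618 to 1976 in KO WD. The uncoupling protein gene Ucp1, the defining gene of that list, stood at 0.0270 to 28.0 FPKM in WT iWAT and at 89.8 to 699 in KO iWAT. The sum of 12 macrophage genes was 341 to 506 FPKM in 3 of the groups and 459 to 994 in the WT WD group, and that of 6 red blood cell genes 1799.97 to 7727 in WT WD and 691 to 1805 in the others. In bulk tissue, fewer cells of a type and less RNA per cell cannot be told apart.

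**Figure D1:**
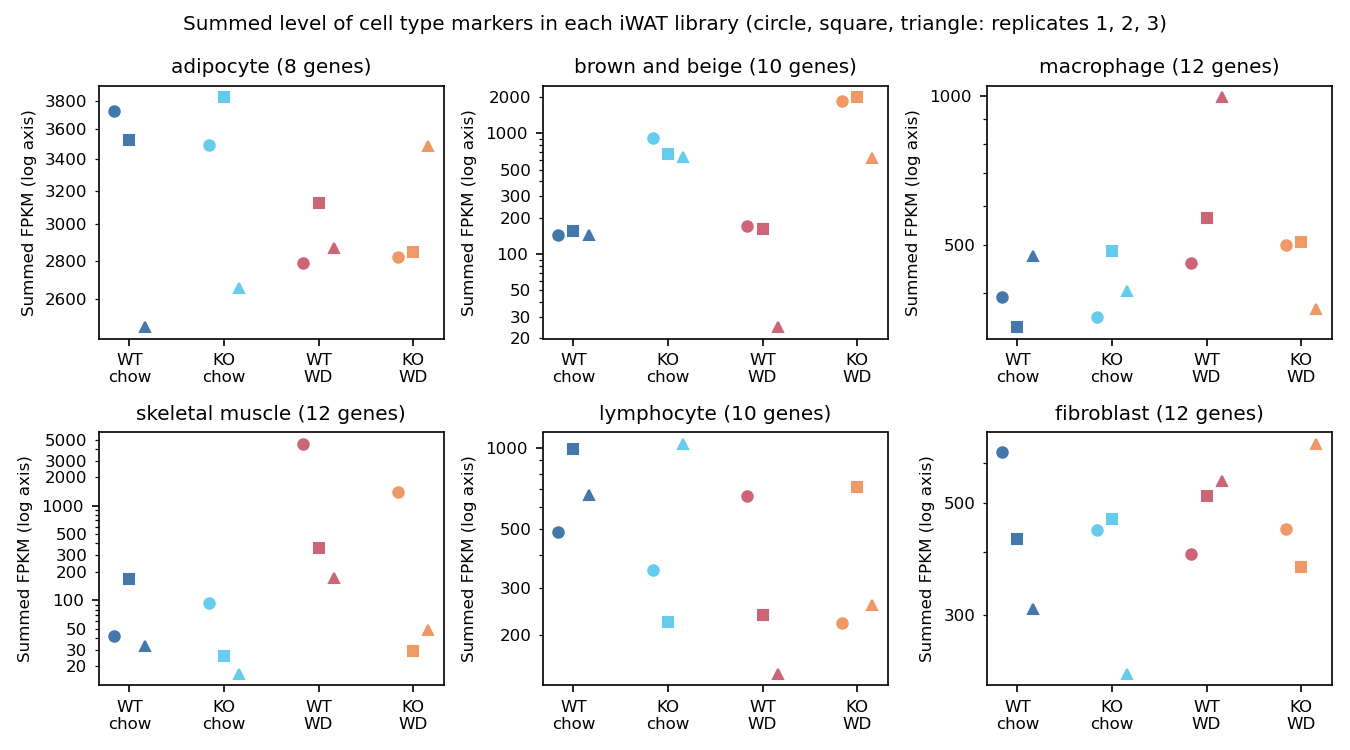
Summed FPKM of 6 marker lists (vertical axis, log scale) in each iWAT library by genotype and diet (horizontal axis), with circle, square and triangle for replicates 1, 2 and 3. The adipocyte list, which includes Adipoq, stayed between 2466 and 3824, the brown and beige list was higher in all KO libraries than in any WT library, and muscle genes stood out in replicate 1 of both WD groups.

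The members spanned a wide range of levels in fat. In WT iWAT on chow Cfd stood at 8313 ± 2237 FPKM (SD, n = 3) and ranked number 1 among 22046 protein-coding genes, with 1.08% ± 0.206 of all reads. Fabp4 (1632 ± 386) and Adipoq (1209 ± 336) followed at ranks 13 and 16 and overlapped each other. Retn (395 ± 126) and Cebpa (341 ± 52.4) overlapped as well, at ranks 51 and 60, as did Rbp4 (199.6 ± 33.6) and Lep (167 ± 72.8), at ranks 104 and 132. Below them came Slc2a4 (71.8 ± 8.0, rank 345) and Pparg (61.3 ± 17.3, rank 425), which overlapped, and Nrg4 (19.2 ± 7.68, rank 1567). Between these 6 steps of the order, no library of one step overlapped with the next. Within WT chow, replicate 3 was the lowest library for 9 of the 10 members, and within KO chow replicate 3 likewise for 9 of 10. The sum of 8 adipocyte markers was also the lowest of its group in these 2 libraries (2466 and 2657). That sum includes Adipoq and carries the same scaling, so it is not independent of the members. The scaling divisors of the deposited values were the largest in the same libraries (1.60 and 1.45, against 1.24 to 1.39 in the other 10 iWAT libraries). What part these differences have in the members' levels was not tested.

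Liver served as the reference tissue, and it separated most members sharply from fat. On chow in WT, limma called 9 of the 10 members between the tissues, where 64% of all 15254 genes tested were called. Whether liver and iWAT came from the same mice is not stated in the labels. The contrast therefore treats the libraries as unpaired. The 8 that were higher in iWAT ran from Nrg4 (1.84 ± 0.32) to Cfd (10.11 ± 0.79). Adipoq stood at 0.768 ± 0.159 FPKM (SD, n = 3) in WT chow liver, from 10 to 15 reads per library, and Lep at 0.128 ± 0.0529, from 3 to 7 reads. Rbp4 was the 1 member that was lower in iWAT, by a log2 difference of -3.56 ± 0.23, at 2365 ± 422 FPKM in liver, where it ranked number 24. Cebpa, a master regulator of hepatocytes as well as of fat cells, was not called (0.36 ± 0.17, limma adjusted p = 0.0765), and its range of 209 to 365 FPKM in liver overlapped the 286 to 390 of iWAT. The deposited scaling differs between the tissues, and the sizes moved with it. Scaled to total reads and after quantile normalization, the difference was -2.73 and -2.0 for Rbp4, 1.19 and 1.64 for Cebpa, 2.57 and 2.15 for Nrg4 and 10.88 and 10.75 for Cfd. The sign of Cebpa held under all 16 alternatives (0.20 to 1.64), and its adjusted p by limma, edgeR or DESeq2 ran from 9.03e-08 to 0.355.

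**Figure D2:**
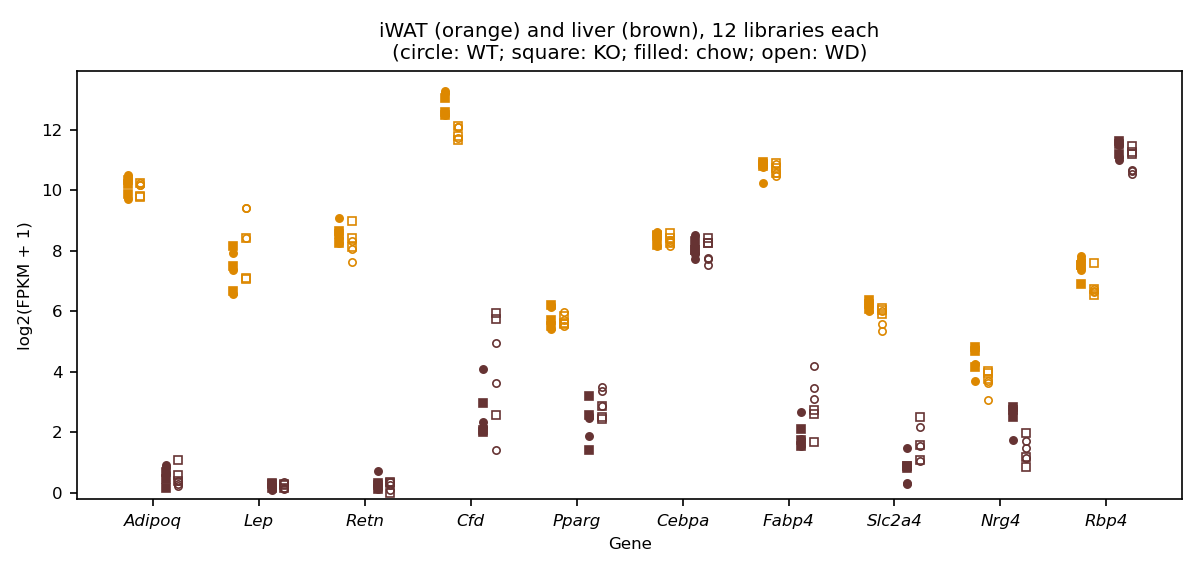
Levels of the 10 genes as log2(FPKM + 1) on the vertical axis in the 12 iWAT (orange) and 12 liver (brown) libraries, with circles for WT, squares for KO, filled for chow and open for WD. Adipoq, Lep and Retn lay near 0 in every liver library, Cebpa reached similar levels in both tissues, and Rbp4 was higher in liver.

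Leptin, the satiety hormone of fat cells, had the widest range of the group in iWAT. Lep (ENSMUSG00000059201, mm10 chr6:29060220-29073877) stood at 165, 240.0 and 94.3 FPKM in WT chow and at 343, 686 and 682 in WT WD. In KO it stood at 178, 285 and 99.7 FPKM on chow and at 132, 137 and 340 on WD. All 3 WT WD libraries lay above every other library, by a narrow margin over KO WD replicate 3, while the 2 lower KO WD libraries lay within the chow range. WT mice thus had 3.43 times the mean level on WD that they had on chow, a log2 fold change of 1.80 ± 0.52 with a 95% interval of 0.65 to 2.95 for this gene alone (limma adjusted p = 0.0938). In KO the diet difference was 0.09 ± 0.52 (interval -1.05 to 1.24, limma adjusted p = 0.961). On WD, KO stood 2.81-fold below WT (-1.56 ± 0.52, interval -2.71 to -0.41, limma adjusted p = 0.131), without overlap. The interaction of genotype and diet was -1.71 ± 0.73 and was not called (limma unadjusted p = 0.0412, adjusted p = 0.703). Over 12 fits that each left out 1 library, KO against WT on WD ran from -2.0 to -1.33 (limma adjusted p of 0.0544 to 0.354). The value of -2.0 came without KO WD replicate 3, which had the highest Lep and the lowest brown and beige marker sum of its group. In KO chow, replicate 3 had the lowest such sum and also the lowest Lep. Without both libraries rich in muscle genes the values were 2.13 for the diet in WT (limma adjusted p = 0.105) and -1.66 for KO on WD (adjusted p = 0.263).

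The sequence before the Lep start site is given because this gene had the largest difference of the group, and those of Rbp4 and Cfd follow because both stood lower on WD. RefSeq (GRCm38.p6) held promoter windows for 8 of the 10 members, 11 windows in all, but not for Fabp4 and Slc2a4. The 250 bases before a start were searched on both strands for a C/EBP motif (TTGCNNAA), the PPARG-RXR direct repeat (2 copies of AGGTCA with 1 base between them) and a TATA box (TATAAA), and capitals mark matches to these. The C/EBP motif was present in windows of Lep, Rbp4 and Pparg, and in 9.56% of all 32851 promoters of that length. In Lep (chr6:29059971-29060220, plus strand) it reads the same on both strands and lies 55 to 48 bases before the start. The more downstream window of Rbp4 (chr19:38124812-38125061, minus strand) holds it 128 to 121 bases before the start, and a TATA box, found in 12.4% of all promoters, at 28 to 23 bases. The Cfd window (chr10:79890603-79890852, plus strand) holds neither. The direct repeat was in none of the members' windows and in 0.0335% of all promoters. Matches to 4 other motifs are not in capitals: the half-site AGGTCA (windows of 2 members, 14% of all promoters), the E-box CACGTG (0 members, 6.02%), the GC box GGGCGG (3 members, 32.7%) and CCAAT (3 members, 33.8%).
Lep: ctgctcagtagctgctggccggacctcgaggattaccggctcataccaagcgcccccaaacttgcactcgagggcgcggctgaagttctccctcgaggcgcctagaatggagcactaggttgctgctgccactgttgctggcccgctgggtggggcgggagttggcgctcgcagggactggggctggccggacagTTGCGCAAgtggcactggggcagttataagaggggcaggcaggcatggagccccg
Rbp4: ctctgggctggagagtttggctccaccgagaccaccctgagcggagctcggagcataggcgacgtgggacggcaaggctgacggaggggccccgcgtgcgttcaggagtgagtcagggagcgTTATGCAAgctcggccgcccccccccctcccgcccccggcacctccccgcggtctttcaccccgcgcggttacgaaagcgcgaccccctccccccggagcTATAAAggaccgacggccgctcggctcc
Cfd: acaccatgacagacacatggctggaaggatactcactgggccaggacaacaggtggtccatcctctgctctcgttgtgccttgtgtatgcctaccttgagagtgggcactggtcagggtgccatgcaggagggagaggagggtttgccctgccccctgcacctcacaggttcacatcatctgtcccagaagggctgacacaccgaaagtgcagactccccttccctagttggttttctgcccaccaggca

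Among the secreted members, Cfd and Rbp4 stood lower on WD than on chow by the most in WT. Cfd (ENSMUSG00000061780, chr10:79890853-79892655) encodes complement factor D, also called adipsin, the serine protease that starts the alternative complement pathway. It stood at 9378, 9817 and 5742 FPKM in WT chow and at 4322, 4348 and 3412 in WT WD. In KO it stood at 8401, 6140 and 5769 FPKM on chow and at 4418, 3556 and 3225 on WD. Every chow library lay above every WD library, in both genotypes. The mean was 2.06-fold lower on WD in WT (-1.01 ± 0.26, limma adjusted p = 0.0720) and 1.81-fold lower in KO (-0.85 ± 0.26, limma adjusted p = 0.392), and the 2 diet differences differed by 0.16 ± 0.37 (limma adjusted p = 0.958). KO and WT overlapped on both diets, at -0.28 ± 0.26 on chow and -0.11 ± 0.26 on WD.

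Rbp4 (ENSMUSG00000024990, chr19:38116620-38125321) encodes the carrier of retinol in blood, which hepatocytes and fat cells secrete. It stood at 227, 209.6 and 162 FPKM in WT chow and at 98.8, 105 and 100.4 in WT WD. In KO it stood at 185, 182 and 119.8 FPKM on chow and at 92.7, 105 and 192 on WD. The WT groups did not overlap and differed by -0.96 ± 0.27 (1.97-fold, limma adjusted p = 0.0903), whereas KO WD replicate 3 lay above all 3 KO chow libraries, and the KO groups overlapped (-0.37 ± 0.27, limma adjusted p = 0.686). Over 12 fits that each left out 1 library, the diet difference in WT ran from -1.10 to -0.86, with limma adjusted p of 0.0385 to 0.227. It stayed uncalled in 11 of them. The adjusted p of 0.0385 came without KO WD replicate 3, which is in neither WT group, at the same fold change. In WT WD the hepatocyte list had a sum of 27.3 to 84.5 FPKM, against 760 to 1045 in WT chow, 632 to 813 in KO chow and 220.0 to 302 in KO WD. The cytochrome gene Cyp2e1, a member of that list, made up most of its sum in WT chow. It ran from 742 to 1006 FPKM there and from 13.3 to 70.3 in WT WD. The hepatocyte factor Hnf4a stood at 0.0721 FPKM or less in every iWAT library and albumin (Alb) at 10.7 to 32.7. In the liver libraries Hnf4a stood at 100 to 242 FPKM and Alb at 15165 to 57310. Of the 6 genes of the list that were tested, limma called 1 lower on WD in WT, where 2.12% of all genes were called.

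Adiponectin, the abundant hormone that sensitises liver and muscle to insulin, differed little between the groups. Adipoq (ENSMUSG00000022878, chr16:23146536-23158028) stood at 1458, 1342 and 826 FPKM in WT chow, 1172, 1278 and 932 in KO chow, 1141, 1197 and 1148 in WT WD and 892, 866 and 1216 in KO WD. The groups overlapped in all 4 comparisons. The difference was -0.01 ± 0.24 for the diet in WT, with an interval of -0.54 to 0.51, and -0.25 ± 0.24 for KO on WD, with an interval of -0.77 to 0.28. The ratio of Adipoq to Lep, both per length, was 8.81, 5.59 and 8.76 in WT chow and 3.33, 1.74 and 1.68 in WT WD. In KO it was 6.59, 4.48 and 9.35 on chow and 6.75, 6.30 and 3.58 on WD. All 3 WT WD ratios lay below every other library, and the KO WD ratios overlapped those of KO chow.

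Resistin, a hormone that fat cells secrete in mice, varied mainly within groups. Retn (ENSMUSG00000012705, chr8:3655770-3660110) stood at 539.6, 338 and 307 FPKM in WT chow and at 379, 397 and 303 in KO chow. On WD it stood at 266, 322 and 198 FPKM in WT and at 278, 344 and 503 in KO. The groups overlapped in every comparison, with differences of -0.57 ± 0.28 for the diet in WT (limma adjusted p = 0.279) and 0.50 ± 0.28 for KO on WD (limma adjusted p = 0.383). Neuregulin 4, a secreted ligand of ERBB receptors that brown fat makes in quantity, had the lowest level of the group. Nrg4 (ENSMUSG00000032311, chr9:55220222-55326844) stood at 12.1, 27.3 and 18.3 FPKM in WT chow, 24.5, 27.1 and 16.9 in KO chow, 11.5, 11.95 and 7.37 in WT WD and 14.7, 15.2 and 12.6 in KO WD. WD lay below chow without overlap in both genotypes (-0.80 ± 0.28 in WT, limma adjusted p = 0.150; -0.63 ± 0.28 in KO, limma adjusted p = 0.521). On WD every KO library lay above every WT library, by 0.45 ± 0.28 (limma adjusted p = 0.432), where 25% of all genes did not overlap. The brown and beige marker sums separated the same libraries. On chow these sums separated KO (637 to 912 FPKM) from WT (143 to 154) as well, while Nrg4 overlapped. The part of the brown and beige genes in the Nrg4 level was not tested. Of the exonic bases of Nrg4, 8.97% overlap genes on the opposite strand (Fbxo22 and Gm15625), whose reads cannot be told apart unless counting used strand. For Cebpa this share is 1.94% (Gm45091), and for the other 8 members 0%.

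Neither transcription factor of fat cell identity separated the groups in iWAT. Pparg (ENSMUSG00000000440, chr6:115360951-115490399), the nuclear receptor that commits cells to the fat lineage, stood at 69.2, 73.4 and 41.5 FPKM in WT chow, 52.0, 73.6 and 45.0 in KO chow, 51.0, 62.2 and 44.8 in WT WD and 56.0, 47.9 and 46.7 in KO WD. Cebpa (ENSMUSG00000034957, chr7:35119293-35121928), its partner in late differentiation, stood at 390.1, 346 and 286 FPKM in WT chow, 365, 359 and 290.1 in KO chow, 309, 329 and 283 in WT WD and 343, 303 and 386 in KO WD. No pair of groups compared separated for either gene. Cebpa had the smallest spread of the 10 over the 12 libraries, with a coefficient of variation of 11.5%, against 20.9% for Pparg and 73.2% for Lep. The diet difference in WT was -0.19 ± 0.24 for Pparg (interval -0.72 to 0.35) and -0.14 ± 0.16 for Cebpa (interval -0.50 to 0.22). KO on WD differed by -0.06 ± 0.24 for Pparg and 0.16 ± 0.16 for Cebpa. Differences within these intervals remain compatible with the values of 3 mice per group.

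The lipid carrier gene overlapped between the groups throughout, and the glucose transporter gene did not stand apart in full either. Fabp4 (ENSMUSG00000062515, chr3:10204088-10208576), which carries fatty acids in the cytosol of fat cells and macrophages, stood at 1944, 1752 and 1201 FPKM in WT chow, 1781, 1929 and 1866 in KO chow, 1428, 1503 and 1844 in WT WD and 1699.5, 1532 and 1906 in KO WD. Its largest difference was 0.22 ± 0.20, for KO on chow. Slc2a4 (ENSMUSG00000018566, chr11:69942539-69948188) encodes GLUT4, the glucose transporter that insulin moves to the surface of fat and muscle cells. It stood at 73.2, 79.0 and 63.2 FPKM in WT chow and 81.2, 75.4 and 66.4 in KO chow. On WD it stood at 64.0, 46.3 and 39.4 FPKM in WT and 59.3, 68.6 and 65.4 in KO. Replicates 2 and 3 of WT WD lay below every library of the other groups, and replicate 1, the library with the most skeletal muscle RNA, overlapped with them. The diet difference in WT was -0.54 ± 0.17 (limma adjusted p = 0.122) and -0.73 without that library (limma adjusted p = 0.0412), and -0.73 without both libraries rich in muscle genes (limma adjusted p = 0.0613). KO on WD stood above WT by 0.39 ± 0.17 (limma adjusted p = 0.260). The part of muscle RNA in these Slc2a4 levels was not tested.

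**Figure D3:**
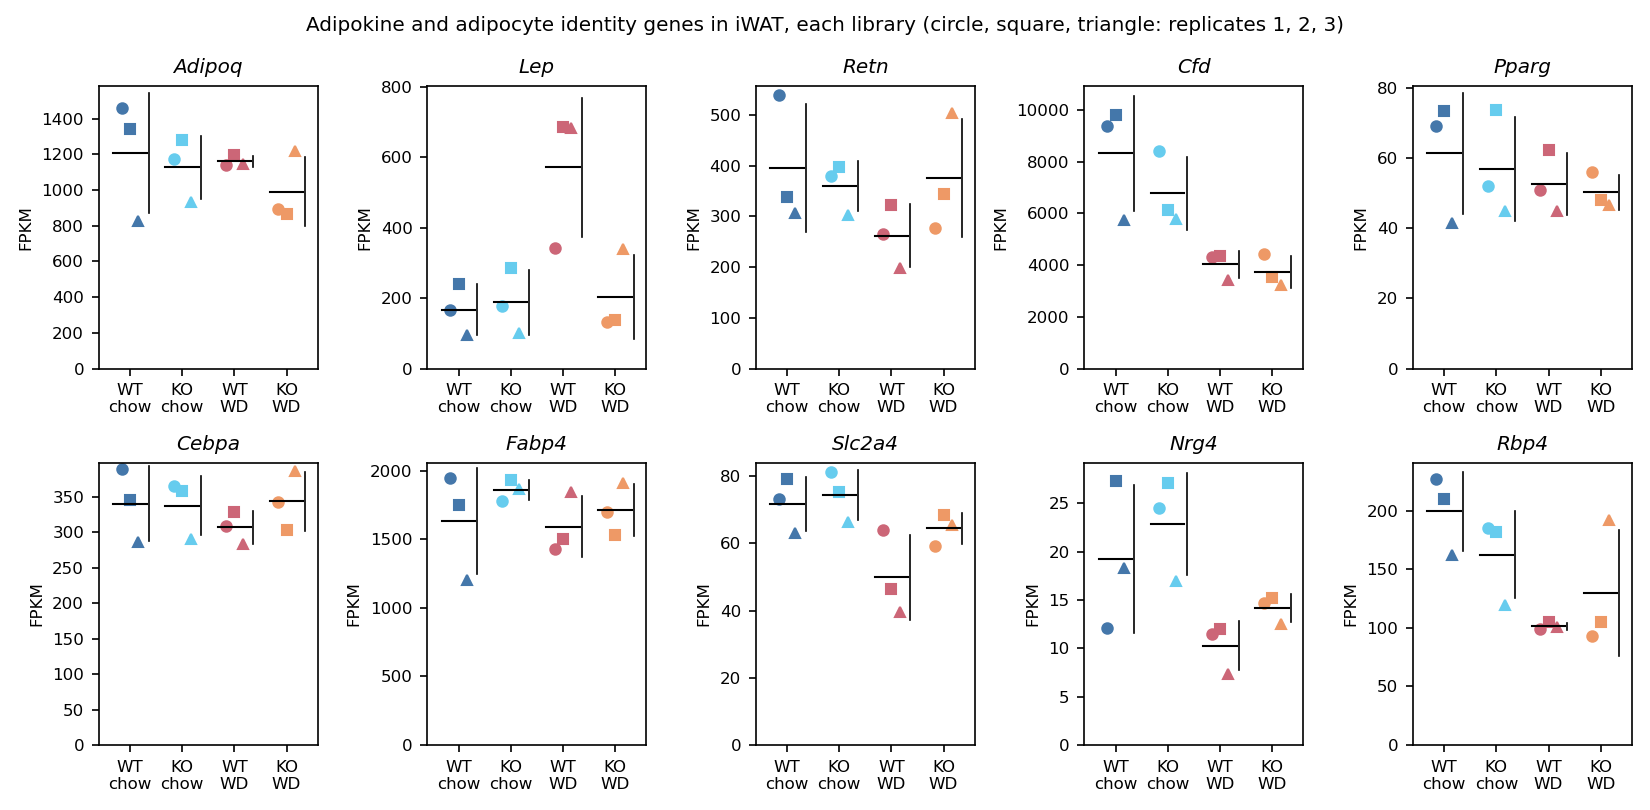
FPKM (vertical axis, from 0) of each gene in the 12 iWAT libraries by genotype and diet, with circle, square and triangle for replicates 1, 2 and 3, a horizontal line for the mean and a vertical bar for 1 SD either side (n = 3). Cfd lay lower in all 6 WD libraries than in any chow library, Lep was highest in the 3 WT WD libraries, and Cebpa and Pparg overlapped in all groups.

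Counted over the 10 genes, none passed the adjusted threshold in iWAT in any of the 5 comparisons by limma. For WD against chow in WT, 2.12% of the 14685 genes tested were called, and 5 members (Lep, Cfd, Rbp4, Slc2a4 and Nrg4) had an unadjusted p under 0.05, where 21.2% of all genes did. Groups did not overlap for 4 of the 10 (Lep higher, Cfd, Rbp4 and Nrg4 lower), against 27.3% of all genes, and the median over the 10 was -0.36, against 0.01 over all genes. For KO against WT on WD 4.25% of genes were called, 2 members (Lep and Slc2a4) had an unadjusted p under 0.05, against 18.6% of all genes, and 2 (Lep and Nrg4) did not overlap, against 25% of all genes. The medians there were 0.13 over the members and -0.02 over all genes. For WD against chow in KO, 0% of genes were called, 2 members (Cfd and Nrg4) had an unadjusted p under 0.05, against 9.47% of all genes, and the same 2 did not overlap, against 15.1%. On chow, KO against WT gave 0% called, 0 members with an unadjusted p under 0.05, against 5.65% of all genes, and 0 without overlap, against 10.8%. The interaction gave 0% called and 1 member, Lep, with an unadjusted p under 0.05, against 6.88% of all genes. These comparisons share groups, so their values are given side by side and not as independent results.

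**Figure D4:**
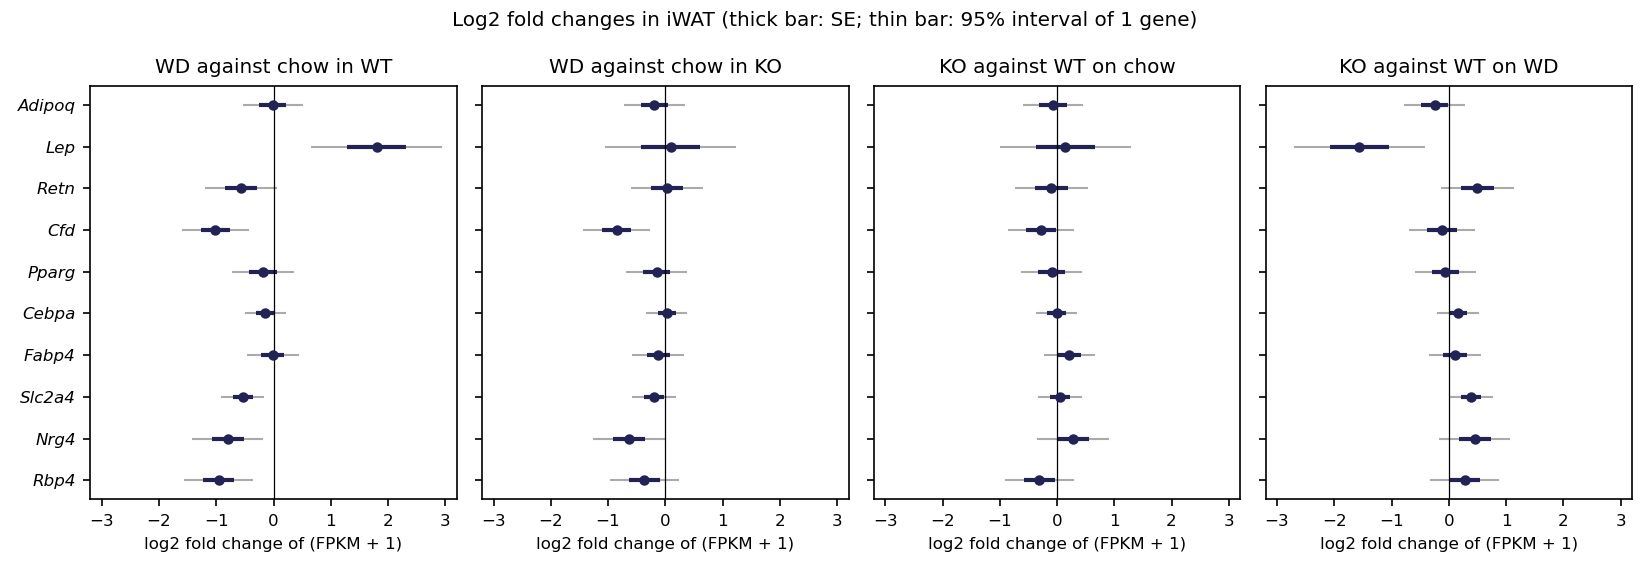
Log2 fold changes of FPKM + 1 (horizontal axis) of the 10 genes in iWAT for the 4 comparisons, 1 panel each, with SE as thick and the 95% interval of a single gene as thin bars. On chow every interval of KO against WT spans 0, and for WD against chow in WT the intervals of Lep, Cfd, Slc2a4, Nrg4 and Rbp4 do not, although none of these genes passed the adjusted threshold.

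Calls of members in iWAT varied with the test, the scaling and the library weights. On whole reads recovered from the FPKM, edgeR called 0 members in all 5 iWAT comparisons. DESeq2 on the same reads called 5 for WD against chow in WT: Cfd at -1.07 (adjusted p = 0.000204), Rbp4 at -1.01 (0.00246), Lep at 1.75 (0.00493), Slc2a4 at -0.56 (0.0227) and Nrg4 at -0.94 (0.0244). It called Lep at -1.49 for KO against WT on WD (adjusted p = 0.0201) and Cfd at -0.87 for WD against chow in KO (adjusted p = 0.0222), and 0 members in the other 2 comparisons. DESeq2 called more genes in general, with 1598 of all genes for the diet in WT against 312 by limma. With library weights limma called 4 for the diet in WT (Lep, Cfd, Slc2a4 and Rbp4) and Lep at -1.91 for KO on WD (adjusted p = 0.0152). Calls over all genes also rose with library weights in these comparisons, as counted in the closing section. Over 24 alternatives the diet difference of Lep in WT ran from 1.44 to 2.13 with limma, edgeR or DESeq2 adjusted p of 0.00493 to 0.256, and that of KO on WD from -2.0 to -1.33 with adjusted p of 0.0152 to 0.354. Over the same alternatives the adjusted p of the diet difference in WT ran from 0.000204 to 0.264 for Cfd, 0.00246 to 0.227 for Rbp4, 0.0227 to 0.321 for Slc2a4 and 0.0244 to 0.375 for Nrg4, by limma, edgeR or DESeq2. That of Cfd for WD against chow in KO ran from 0.0222 to 0.686. Scaling to total reads called Cfd (-1.07, limma adjusted p = 0.0344) and Rbp4 (-1.02, limma adjusted p = 0.0486) for the diet in WT. Calls over all genes rose above the 312 reported under that setting too. After quantile normalization Cfd, among the highest genes of each library, stood at -0.41 for the diet in WT and at -1.12 for KO on WD (limma adjusted p = 0.0247, with a range of 0.0247 to 0.987 over the alternatives).

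**Figure D5:**
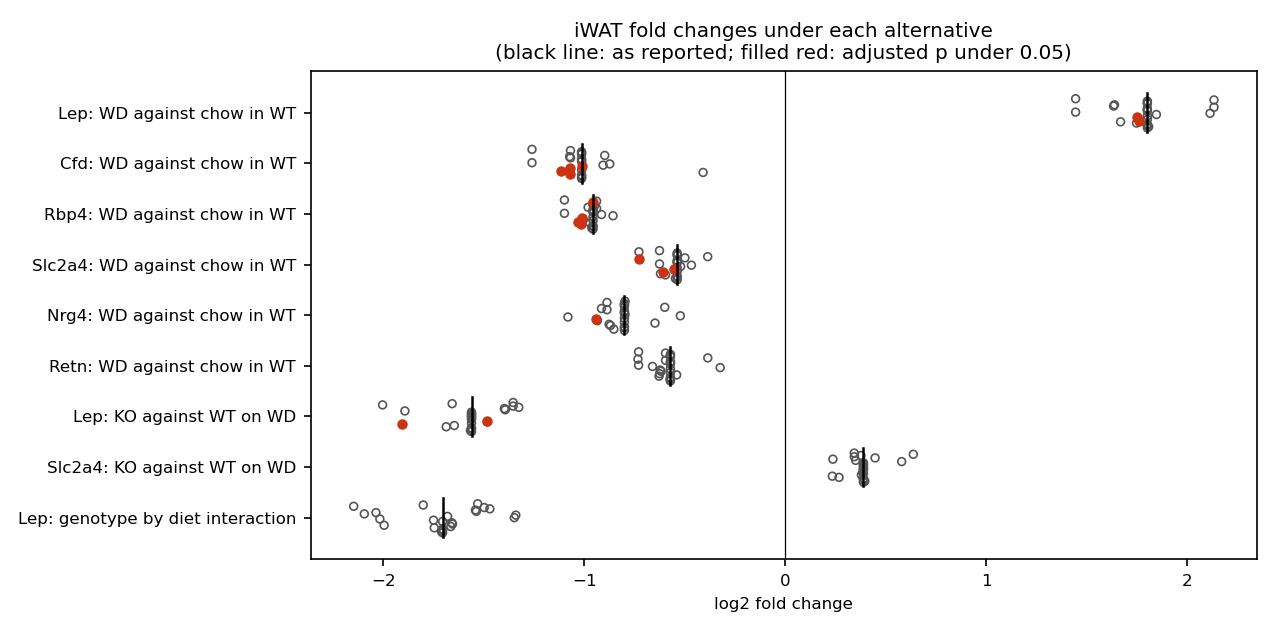
Log2 fold changes in iWAT (horizontal axis) of 9 combinations of gene and comparison under each alternative of test, scaling, filter and left-out library (1 point each), with a black line at the value reported and filled points where the adjusted p was under 0.05. The points of each row stay on 1 side of 0, and for Retn, for Slc2a4 in KO against WT and for the Lep interaction none is filled.

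In the authors' deposited table of KO against WT on WD in iWAT, Lep stood at a log2 fold change of -1.47 with an adjusted p of 0.00503. The authors' deposited table also lists Retn at 0.54 (adjusted p of 0.239) and Nrg4 at 0.49 (adjusted p of 0.196), since it holds genes with an unadjusted p under 0.05. None of the 10 members is in the authors' deposited tables for chow in either tissue.

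Genes that work around the members were counted in 9 lists, and few were called beside those of lipid synthesis. Among 30 adipocyte effector genes, 6 were called lower on WD in WT and 9 higher in KO against WT on WD, with list medians of -0.25 and 0.41. Over all genes tested, 2.12% and 4.25% were called in these comparisons, in either direction. The fatty acid elongase gene Elovl6 fell by 2.56 ± 0.34 on WD in WT (limma adjusted p = 0.0136) and rose by 3.55 ± 0.34 in KO on WD (limma adjusted p = 0.00397). Acaca, the first enzyme of fatty acid synthesis, fell by 1.63 ± 0.196 and rose by 1.79 ± 0.196 in the same comparisons, and Dgat1, which makes triglyceride, fell by 0.72 ± 0.11 and rose by 0.62 ± 0.11. The β3-adrenergic receptor gene Adrb3 fell by 1.61 ± 0.28 on WD in WT, from 107 ± 28.0 to 34.3 ± 8.91 FPKM (SD, n = 3), and Agpat2 of triglyceride synthesis rose by 1.55 ± 0.26 in KO on WD. Both comparisons share the WT WD group. Of the 10 brown and beige genes, 8 were called higher in KO on WD, and their part in these changes was not tested. The counts rested on few libraries: without both libraries high in muscle genes limma called 0 effector genes in KO on WD, at a median of 0.49, and 2 on WD in WT, at -0.24. Calls over all genes fell as well under that setting, from 624 to 4 in KO on WD and from 312 on WD in WT. Leaving out WT WD replicate 3, KO WD replicate 1 or KO WD replicate 2 gave 2 called in KO on WD, and leaving out WT WD replicate 1 gave 4. On WD in WT it was 1 without WT WD replicate 3 and 3 without WT chow replicate 1, WT chow replicate 2 or WT WD replicate 2. With edgeR the counts were 9 and 6, and with DESeq2 13 and 11.

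The next lists had few calls each, where limma called 4.25% of all genes in KO on WD and 2.12% on WD in WT. Calls of these lists under the alternatives were not counted. Over all genes, leaving out 1 library gave 16 to 871 calls in KO on WD and 22 to 404 on WD in WT. Among 21 tested genes of other secreted factors, 2 were called in KO on WD. C1qtnf12, a relative of adiponectin, rose by 0.73 ± 0.15 (limma adjusted p = 0.0294) and Adm, which encodes adrenomedullin, fell by 0.97 ± 0.23 (limma adjusted p = 0.0473). Of 13 tested complement genes 1 was called: C3, the substrate of the pathway that factor D starts, fell by 1.02 ± 0.22 on WD in WT (limma adjusted p = 0.0477), from 215 ± 46.4 to 104 ± 14.5 FPKM. Of 18 genes of glucose uptake and insulin signalling, Tbc1d4, a brake on GLUT4 transport, rose by 0.496 ± 0.095 in KO on WD (limma adjusted p = 0.0246). Of 18 tested transcription factors of fat cells, Esrra rose by 0.67 ± 0.16 in KO on WD (limma adjusted p = 0.0488). In the fatty acid binding protein family 2 of 3 tested genes besides Fabp4 were called: Fabp3 (5.39 ± 1.03, limma adjusted p = 0.0246) and Fabp5 (0.73 ± 0.16, limma adjusted p = 0.0324) rose in KO on WD, while Fabp4 stood at 0.11 ± 0.20. Fabp3 varied widely within the groups, at 402 ± 307 FPKM (SD, n = 3) in KO WD and 8.11 ± 6.87 in WT WD. Receptors of the members' products (7 tested), genes of adiponectin assembly (10 tested) and of retinoid handling (12 tested) had 0 calls by limma, the tool these lists were counted with, in any comparison. For KO on WD, 2, 1 and 2 of them had a limma unadjusted p under 0.05, where 18.6% of all genes did. On WD in WT it was 2, 1 and 3 of them, where 21.2% of all genes did. The receptor genes with the smallest p for KO on WD were Erbb3 of the ERBB family (0.30 ± 0.12, limma adjusted p = 0.190) and the adiponectin receptor gene Adipor2 (0.41 ± 0.17, limma adjusted p = 0.242). No gene of the 9 lists was called for KO against WT on chow, for WD against chow in KO or for the interaction. Limma called 0 genes in all there. Of the 30 effector genes, 6, 1 and 7 had a limma unadjusted p under 0.05, against 5.65%, 9.47% and 6.88% of all genes.

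In liver 8 of the 10 members passed the filter of a mean of 0.5 FPKM, all but Lep and Retn. On WD 3 were called in livers labelled KO against those labelled WT, where 21% of the 14019 genes tested were. Rbp4 stood at 1479, 1597 and 1613 FPKM in livers labelled WT and at 2360, 2794 and 2448 in those labelled KO, a difference of 0.69 ± 0.16 (limma adjusted p = 0.0137). The groups did not overlap. Cebpa stood at 185, 216 and 212 FPKM against 306, 344 and 304 (0.64 ± 0.19, limma adjusted p = 0.0365), and Fabp4 at 17.3, 7.53 and 10.2 against 2.19, 5.15 and 5.63 (-1.25 ± 0.38, limma adjusted p = 0.0421). Macrophages also express Fabp4, and the sum of 12 macrophage genes was 540.1 to 1232 FPKM in livers labelled WT on WD and 114 to 279 in the other 9; its part in the Fabp4 level was not tested. In the authors' deposited table of WD liver, Rbp4 stood at 0.66 (adjusted p of 1.33e-06), Cebpa at 0.60 (2.74e-05), Fabp4 at -1.47 (0.000804) and Pparg at -0.80 (0.00715).

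For WD against chow in livers labelled WT 2 members were called, where 19.2% of genes were. Fabp4 rose by 1.59 ± 0.38 (limma adjusted p = 0.0173), from 5.32, 1.91 and 2.47 FPKM on chow, and Rbp4 fell by 0.58 ± 0.16 (limma adjusted p = 0.0284), from 2054, 2195 and 2845. In livers labelled KO 0 of 8 were called by limma or edgeR, where 0.421% of genes were, 2 (Cfd and Nrg4) had an unadjusted p under 0.05, against 15.4% of genes, and DESeq2 called 1, Nrg4 at -1.71 (adjusted p = 0.00709, and 0.00709 to 0.344 over the alternatives). On chow, KO against WT in liver gave 0% called, with 0 of 8 members under an unadjusted p of 0.05, against 4.81% of genes, and 0 called by edgeR and by DESeq2. The interaction in liver called 0 members by limma, edgeR and DESeq2, where 0.549% of genes were called, and 1 member (Adipoq) had an unadjusted p under 0.05, against 16.4% of genes. The calls of Rbp4 and Cebpa depended on the scaling that the deposited FPKM carry, whose divisor was 0.980 to 1.07 in livers labelled WT on WD and 0.769 to 0.854 in the other 9. Scaled to total reads, KO on WD stood at 0.37 for Rbp4 (limma adjusted p = 0.121) and 0.31 for Cebpa (adjusted p = 0.232), and after quantile normalization at 0.08 (adjusted p = 0.792) and 0.25 (adjusted p = 0.325). The diet difference of Rbp4 stood at -0.24 (limma adjusted p = 0.287) and -0.0026 (adjusted p = 0.994) under the same settings. Fabp4 kept its direction and size under both, at -1.51 and -1.33 for KO on WD (limma adjusted p = 0.0145 and 0.0436). Over 22 alternatives the adjusted p by limma, edgeR or DESeq2 for KO on WD ran from 0.000527 to 0.792 for Rbp4, 0.00751 to 0.325 for Cebpa and 0.00470 to 0.161 for Fabp4. For the diet in livers labelled WT it ran from 0.00348 to 0.994 for Rbp4 and 0.000250 to 0.0669 for Fabp4. Without WT WD replicate 1, 0 members were called in either comparison, and without WT chow replicate 3, whose muscle gene sum was 213 FPKM against 0.380 to 99.8 in the other 11 livers, 0 were called for the diet.

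Across the 12 iWAT libraries, log2 levels of the members tracked each other to different degrees, described here with no test because the libraries share groups. Pearson's r ran from -0.60 (Lep with Slc2a4) to 0.82 (Retn with Cebpa), and the 5 negative pairs all included Lep, with Slc2a4, Nrg4, Cfd, Retn and Rbp4. By the same measure the gene most like each member was taken from the 6263 genes with a mean of at least 5 FPKM. These were Ddb1 (r = 0.97) for Lep, Bche (0.96) for Adipoq, Met (0.95) for Cfd, Gm20257 (0.96) for Rbp4, Ptges (0.90) for Retn, Pfkfb1 (0.91) for Nrg4, Echdc2 (0.89) for Pparg, Gphn (0.95) for Cebpa, Stt3b (0.95) for Fabp4 and Dpm3 (0.95) for Slc2a4. No member was among the 3 genes most like another member.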

How the data were processed

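RNA was sequenced from 12 iWAT and 12 liver libraries, prepared from poly-T selected RNA, per the labels' protocols. HISAT2 2.0.5, DESeq2 1.20.0 and mm10 stand in the submitters' processing notes, with no role assigned, and neither the read counter nor strandedness was found in the labels used here. The values used are the authors' FPKM of 54532 genes, per the file headers, with gene length in the same table. The authors' deposited tables of KO against WT list genes with an unadjusted p under 0.05, with their read counts, log2 fold change, p-value and adjusted p-value, per the file headers. A further 56 columns of values, 32 of them normalized counts, were not used.

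Whole reads were recovered from FPKM times gene length times 1 constant per library: 540911 of 540911 values above 0 (100%) came out whole within 0.01 reads, and they matched the deposited counts in all 64434 comparisons. The constants show that the FPKM carry a scaling factor per library, with divisors of 1.24 to 1.60 times the reads in iWAT and 0.769 to 1.07 times in liver. Genes with a mean of at least 0.5 FPKM in a tissue (14685 in iWAT, 14019 in liver) were fitted on the scale of log2(FPKM + 1) with limma 3.58.1 (trend and robust options) in R 4.3.3, 4 groups per tissue. The contrast of tissues took all 24 libraries. The Benjamini-Hochberg adjustment of p-values covered all genes tested, and fold changes of low genes are understated by the added 1. edgeR 4.0.16 (quasi-likelihood) and DESeq2 1.42.0 on the recovered reads, another pseudocount, filters, scalings, library weights, a replicate block and left-out libraries were alternatives. The limma step was tested on simulated data. The design text gives 3 mice per group; p-values measure the spread between these libraries.

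The members, the gene lists and the tests were chosen with earlier results of these data known. The counts of effector genes under the alternatives were added after seeing the data. Genes are named by rule: all 10 members and Mrs2, up to 4 called genes (otherwise up to 2) with the smallest p from each of 9 lists, and the closest genes by Pearson's r. The list symbols Ero1a and Trarg1 were matched as Ero1l and Tusc5. Of the called list genes, 1 is not reported here. Marker lists are given as summed FPKM. Promoter windows came from RefSeq on GRCm38.p6. Of the 10 members, 9 had the coordinates of GENCODE vM21, and Rbp4 did not. Equal replicate numbers were tested for pairing, and all 3 correlations of residuals across genes exceeded 0.1 in 1 comparison, KO against WT on chow in iWAT (r = 0.184, 0.127 and 0.407). Unequal numbers there gave 0.258 (WT 1 with KO 2) and 0.136 (WT 2 with KO 1), and -0.327 to -0.189 otherwise. Whether the mice were paired cannot be told from these values. With a replicate block that comparison still called 0 members, and 1 gene in all.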

Additional observations from a re-analysis of the deposited data

How the results depend on the processing

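The limits come from 3 mice per group, from uneven contents of other cells in the iWAT libraries, and from the scaling carried by the deposited FPKM. With 14.7 to 20.4 M reads, counting error is small for the members in iWAT, where the lowest count was 977 reads, and large for Adipoq, Lep and Retn in liver, with 0 to 21 reads. Of the comparisons of single members in iWAT under alternatives other than leaving out 1 library, 549 kept their direction and call, 16 were called only under the alternative and 25 changed sign; in liver 347 kept both, 7 were called only under the alternative, 16 lost their call and 7 changed sign.

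In iWAT the number of members called, 0 of 10 as reported in each comparison, was 1 for KO against WT on WD after quantile normalization, with library weights and with DESeq2. For WD against chow in WT it was 2 after scaling to total reads, 4 with library weights, 5 with DESeq2 and 1 with the replicate block. For WD against chow in KO it was 1 with DESeq2. In liver limma called 3 members for KO against WT on WD as reported, where 21% of all genes were called. That count became 1 with no filter on low values, after scaling to total reads, after quantile normalization, with edgeR and with the replicate block. The 2 called for WD against chow in WT, where 19.2% of all genes were, became 0 when only the 2 groups compared were fitted and 4 with DESeq2. The 0 for WD against chow in KO, where 0.421% of all genes were called, became 1 with library weights and with DESeq2. The share of all genes under each of these liver settings is not given here, so whether the member counts moved with it cannot be told. Except where the test itself was another, the cause was not tested. Leaving out 1 library gave 0 to 1 members for WD against chow in WT in iWAT (1 without WT WD replicate 1 or KO WD replicate 3), 0 to 3 for each of KO against WT on WD and WD against chow in WT in liver, and 9 to 10 between the tissues. Over all genes the same fits called 22 to 404 for WD against chow in WT in iWAT. In liver they called 1354 to 3204 for KO against WT on WD and 1425 to 2791 for WD against chow in WT. Between the tissues they called 9042 to 9461.

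Counts over all genes moved more. KO against WT on WD in iWAT called 624 genes, 4 without both libraries high in muscle genes and 15 without the 3 high in Cd79a. It called 16 with only the 2 groups compared, 204 with no filter and 959 after scaling to total reads. DESeq2 called 1454 and library weights 1514, and leaving out 1 library gave 16 to 871. WD against chow in WT called 312, and 95 with only the 2 groups compared. It called 99 without the libraries high in Cd79a and 136 without the muscle libraries. The count was 139 with no filter, 155 with the replicate block and 499 after scaling to total reads. Library weights gave 837 and DESeq2 1598, and leaving out 1 library gave 22 to 404. DESeq2 called 68 for KO against WT on chow, 175 for WD against chow in KO and 51 for the interaction, where limma called 0. In liver KO against WT on WD called 2943 genes, 1701 where the mean had to reach 5 FPKM and 4462 with library weights.

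Signs changed only for members that were not called. After scaling to total reads the value was Slc2a4 -0.034 for KO against WT on chow in iWAT, and Fabp4 -0.016 for KO against WT on WD in iWAT. Under the same setting the value was Lep -0.00064, Retn -0.069 and Cebpa -0.070 for WD against chow in KO in iWAT, and Pparg -0.0037 for the interaction in iWAT. Under the same setting the value was Slc2a4 -0.079 for KO against WT on WD in liver. After quantile normalization the value was Slc2a4 -0.092 for KO against WT on chow in iWAT, and Fabp4 -0.40 for KO against WT on WD in iWAT. Under the same setting the value was Adipoq 0.042 and Fabp4 0.34 for WD against chow in WT in iWAT, and Retn -0.11 and Cebpa -0.00035 for WD against chow in KO in iWAT. Under the same setting the value was Cfd -0.64 for the interaction in iWAT, and Cebpa -0.019 for KO against WT on chow in liver. Under the same setting the value was Nrg4 0.039 for KO against WT on WD in liver, and Rbp4 -0.082 for the interaction in liver. With library weights the value was Lep -0.24, Retn -0.21 and Cebpa -0.069 for WD against chow in KO in iWAT, and Fabp4 0.051 and Nrg4 -0.049 for the interaction in iWAT. Under the same setting the value was Slc2a4 0.14 for the interaction in liver. With edgeR the value was Slc2a4 0.076 for the interaction in liver. With DESeq2 the value was Slc2a4 0.058 for the interaction in liver. Without both iWAT libraries high in muscle genes the value was Fabp4 0.058 for WD against chow in WT in iWAT, and Pparg -0.062 for the interaction in iWAT. Without the 3 iWAT libraries high in Cd79a the value was Lep -0.088 and Retn -0.052 for WD against chow in KO in iWAT. For the interaction in iWAT it was then Adipoq 0.035, Fabp4 0.18 and Nrg4 -0.078. Leaving out 1 library at a time gave ranges that crossed 0 for these members. They were -0.32 to 0.086 for Adipoq, -0.22 to 0.53 for Lep, -0.26 to 0.15 for Retn, -0.35 to 0.055 for Pparg, -0.13 to 0.10 for Cebpa and -0.038 to 0.13 for Slc2a4 for KO against WT on chow in iWAT. The values were -0.17 to 0.065 for Pparg and -0.035 to 0.49 for Rbp4 for KO against WT on WD in iWAT. The ranges were -0.27 to 0.14 for Adipoq and -0.22 to 0.12 for Fabp4 for WD against chow in WT in iWAT. The limits were -0.35 to 0.46 for Lep, -0.21 to 0.22 for Retn, -0.30 to 0.048 for Pparg and -0.080 to 0.11 for Cebpa for WD against chow in KO in iWAT. The extremes were -0.33 to 0.077 for Adipoq, -0.11 to 0.29 for Pparg, -0.25 to 0.10 for Fabp4 and -0.11 to 0.45 for Nrg4 for the interaction in iWAT. They were -0.86 to 0.090 for Cfd, -0.32 to 0.56 for Pparg, -0.085 to 0.31 for Cebpa, -0.43 to 0.13 for Fabp4, -0.046 to 0.54 for Slc2a4 and -0.078 to 0.44 for Nrg4 for KO against WT on chow in liver. The values were -0.25 to 0.45 for Slc2a4 and -0.42 to 0.15 for Nrg4 for KO against WT on WD in liver. The ranges were -0.34 to 1.42 for Cfd for WD against chow in WT in liver. The limits were -0.27 to 0.61 for Pparg for WD against chow in KO in liver. The extremes were -0.41 to 0.29 for Slc2a4 for the interaction in liver.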
